A study of Mus musculus with 6 samples.

Results

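The genes described here encode secreted proteins of the mouse oocyte. Among them are the egg coat genes Zp1, Zp2 and Zp3, the protease gene Astl and the growth factor genes Gdf9, Bmp15 and Fgf8. The others are the oocyte-secreted protein genes Oosp1, Oosp2 and Oosp3. These 10 genes were picked by name, with earlier results of these data known, from the 27179 gene identifiers of each count table, and 10 of 10 had enough counts to be tested. The libraries came from germinal vesicle oocytes, which are fully grown and still arrested in the first meiotic prophase, with a pool of about 10 oocytes behind each. In the 3 knockout libraries, exon 5 of Prdm10, a zinc finger gene of the PRDM family of transcriptional regulators, had been flanked by loxP sites and deleted by Zp3-cre, a transgene in which the promoter of Zp3 makes Cre recombinase in growing oocytes. The 3 other libraries were wildtype, and whether those mice carried the Cre or a floxed allele is not given in the sources used here, nor are the age and the strain of any of the mice. The question was which of these transcripts differed in level between oocytes without and with maternal Prdm10. The labels call the replicates biological without tying them to separate mice, so the p-values measure only the spread between these pools.

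The zona pellucida is the glycoprotein matrix that the oocyte lays down while it grows; sperm bind to it, and after fertilization ovastacin, the product of Astl, is released from cortical granules and cleaves ZP2, which ends sperm binding. GDF9 and BMP15 are TGF-beta family ligands that act on the surrounding granulosa cells, and FGF8 acts with BMP15 on cumulus cells to drive their glycolysis. The Oosp genes encode small secreted proteins related to the placental protein PLAC1, and in the mouse they lie next to each other.

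Total counts ran from 22492228 to 38831227 per library, with 17973 to 19307 genes having at least 1 count. Levels are given below as CPM, the usual unit of counts scaled to library size, and 1 count stood for 0.0240 to 0.0457 CPM. Prdm10 was lower in each knockout library (2.80, 3.82 and 3.05 CPM) than in each wildtype library (10.4, 23.1 and 22.96 CPM), and its log2 fold change was -2.54 (SE 0.325, with adjusted p = 0.00436 by edgeR's quasi-likelihood test with Benjamini-Hochberg adjustment). Wildtype replicate 1 stood apart from the other wildtype libraries, so the change of each of the 10 genes is given with and without it. The 12 listed markers of germinal vesicle oocytes summed to 23440.0 to 24618 CPM in the knockout and 23265 to 23983 CPM in the wildtype libraries. With all 6 libraries 1 of the 12 (Mos) was called lower, beside 11.2% of all genes tested called in either direction. Without wildtype replicate 1, 2 were called higher (Padi6 and Nlrp5) and 5 lower (Mos, Oog1, Zar1, Ooep and Dazl). In that fit 34.4% of all genes were called, 16.7% higher and 17.7% lower. The other marker lists are read against the same shares. The 12 listed granulosa and cumulus markers summed to 78.3 to 91.5 CPM in the knockout and 87.4 to 94.5 CPM in the wildtype libraries, 2 of them were under 1 CPM in every library and 0 of them were at 0 throughout. With all 6 libraries 0 of the 12 were called at an adjusted p under 0.05, and without wildtype replicate 1 the aromatase gene Cyp19a1 was called lower (log2 fold change -0.64, adjusted p = 0.000857, edgeR). Of 10 theca and stroma markers 3 could be tested and 0 were called with or without that library (4.72 to 8.32 CPM in all in the knockout, 4.12 to 10.4 CPM in the wildtype). Of 10 blood, immune and endothelial markers 5 could be tested and Cd68 was called higher (Cd68 and Pecam1 without that library), and the list summed to 118 to 122 CPM in the knockout and 37.5 to 83.2 CPM in the wildtype libraries, most of it Pecam1, with Hba-a1 and Cdh5 at 0 in every library. The part of these markers in the results below was not tested.

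Together the 10 genes made up 2.40% ± 0.0897 of all counts in the knockout (SD, n = 3) and 2.40% ± 0.0470 in the wildtype libraries (SD, n = 3). By library the share was 2.50%, 2.36% and 2.34% in the knockout and 2.34%, 2.41% and 2.44% in the wildtype, and the groups overlapped. The lowest count of any of the 10 in a library was 3383, for Fgf8. In wildtype oocytes Gdf9 ranked 2 and Zp3 ranked 10 of all identifiers by mean CPM, which is not corrected for length. Per kilobase of exon they ranked 4 and 6 of the 21573 identifiers with a known exonic length.

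Per kilobase of exon, the order of wildtype levels was Gdf9, Zp3, Oosp1, Oosp3, Bmp15, Zp2, Oosp2, Zp1, Astl and Fgf8. Gdf9 averaged 3337 ± 437 CPM per kilobase and Zp3 2698 ± 314 (SD, n = 3 each). Oosp1, at 1603 ± 655, Oosp3, at 1500.2 ± 468, and Bmp15, at 1425 ± 639 CPM per kilobase (SD, n = 3 each), came next, with large spreads that came from wildtype replicate 1. Zp2 stood at 1146 ± 126, Oosp2 at 905 ± 278 and Zp1 at 848 ± 65.3 CPM per kilobase, followed by Astl at 339.6 ± 71.8 and Fgf8 at 143 ± 18.6 (SD, n = 3 each). Of the 9 pairs of neighbours in this order, 3 did not overlap between wildtype libraries: Zp3 lay above Oosp1, Zp1 above Astl and Astl above Fgf8. The other 6 pairs overlapped and cannot be ordered from these libraries. Gdf9 was 23.3-fold above Fgf8 on this scale.

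**Figure D1:**
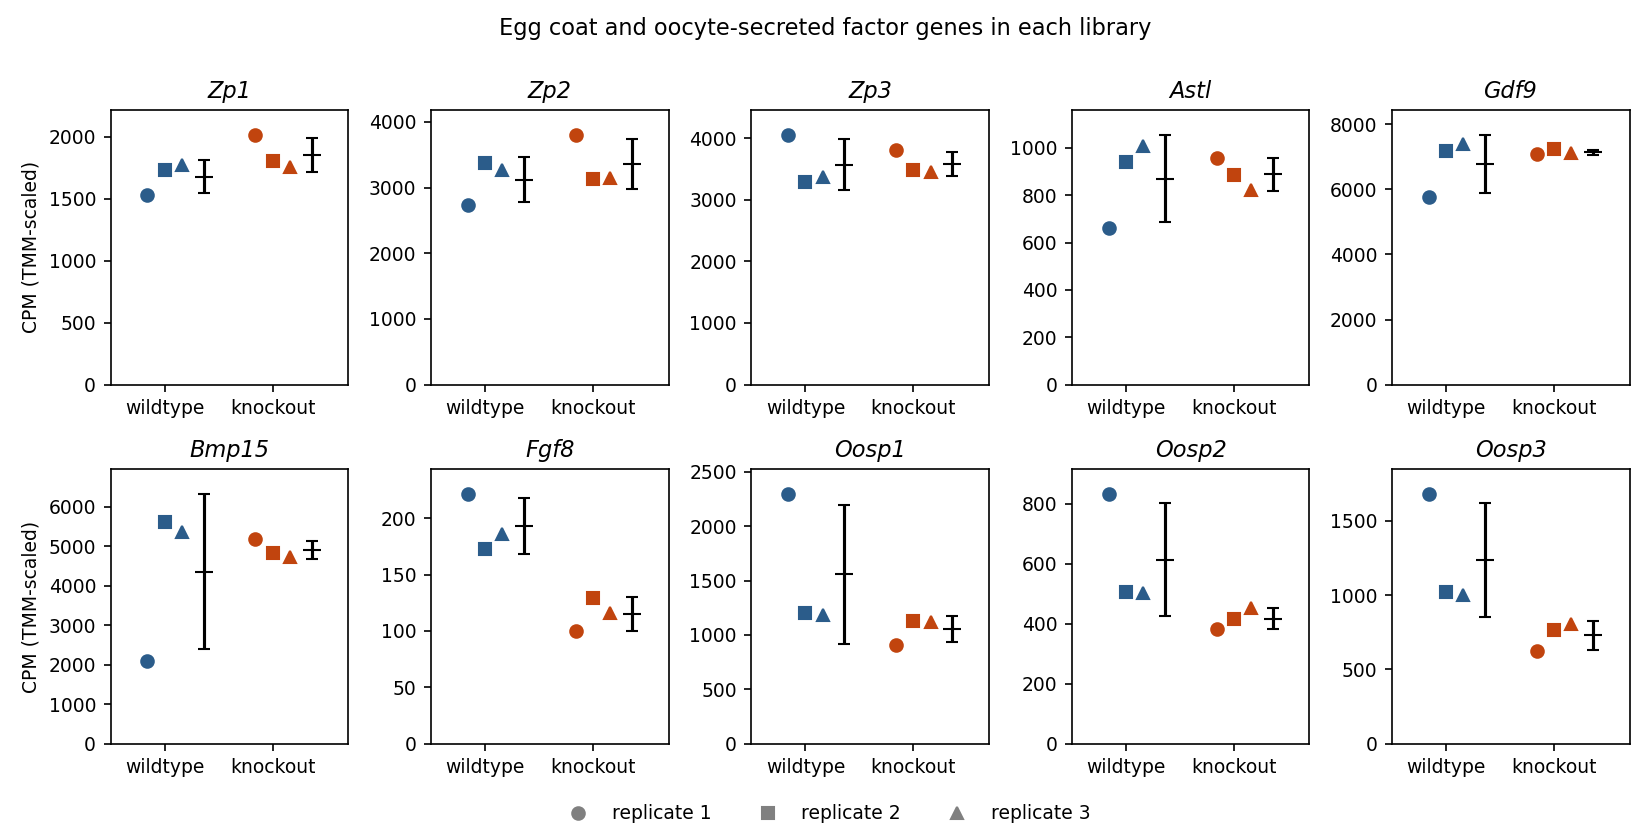
Level of each of the 10 genes in each library, in CPM on a linear axis that starts at 0, with wildtype in blue and knockout in orange; symbols give the replicate number and the black bars the mean and SD of 3 libraries. Wildtype replicate 1 (blue circle) lies apart from wildtype replicates 2 and 3 in most panels, above them for Zp3, Fgf8 and the Oosp genes and below them for the others, and in the Fgf8 panel the 3 knockout libraries (99.7 to 129 CPM) lie below all 3 wildtype libraries (172 to 221 CPM).

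Of the 10 genes, 1 was called at an adjusted p under 0.05 (edgeR), Fgf8, which fell, against 11.2% of the 14957 genes tested that were called in either direction and 5.34% that were called lower. The other 9 were not called. Unadjusted p-values were under 0.05 for 3 of the 10 (Fgf8, Oosp2 and Oosp3). The share of all genes under that unadjusted p was not computed, so this count has no background beside it. The median log2 fold change of the 10 was 0.02, beside -0.00 for all genes tested. Without wildtype replicate 1, 4 of the 10 were called, each of them lower (Fgf8, Oosp3, Oosp2 and Bmp15), against 34.4% of 15104 genes in either direction, 16.7% higher and 17.7% lower. The median log2 fold change of the 10 was then -0.15, beside 0.01 for all genes. The groups were separate, with the knockout below, for 4 of the 10 (Fgf8, Oosp1, Oosp2 and Oosp3) and for 19.2% of genes tested, and separate with the knockout above for 0 of the 10 and for 21.0% of genes tested.

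**Figure D2:**
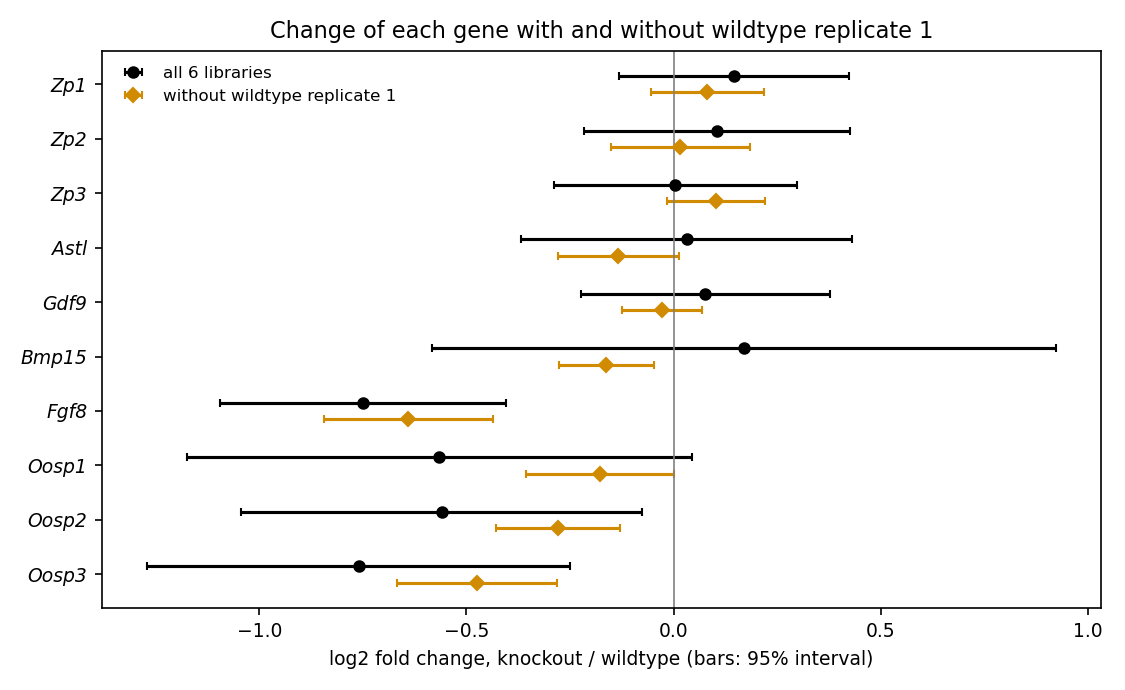
Log2 fold change of knockout over wildtype for each gene from edgeR, with its 95% interval, from all 6 libraries (black circles) and without wildtype replicate 1 (yellow diamonds). With all 6 libraries the intervals of Fgf8, Oosp2 and Oosp3 lie below 0, and without wildtype replicate 1 the intervals narrow for each gene and that of Bmp15 also lies below 0.

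Among the coat proteins, Zp1, which cross-links the filaments of the coat, lies at chr19:10914296-10920601 on the minus strand (GRCm38.p6). Its level was 2012, 1801 and 1756 CPM in knockout replicates 1 to 3 and 1532, 1732 and 1774 CPM in wildtype replicates 1 to 3. The groups overlapped, with knockout replicate 1 the highest and wildtype replicate 1 the lowest. The log2 fold change was 0.14 (95% interval -0.13 to 0.42, adjusted p = 0.453, edgeR), and 0.08 without wildtype replicate 1.

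Zp2, the coat protein that sperm bind, lies at chr7:120126762-120145291 on the minus strand. It was counted at 3797, 3126 and 3153 CPM in the knockout and 2730.3, 3368 and 3270.3 CPM in the wildtype libraries. Again knockout replicate 1 was the highest and wildtype replicate 1 the lowest, and the groups overlapped. The log2 fold change was 0.11 (95% interval -0.22 to 0.43, adjusted p = 0.644, edgeR), 0.02 without wildtype replicate 1 and -0.0025 when each library's trend with exon length was taken out, so its sign is not determined.

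Zp3, the partner of ZP2 in the coat filament, is also the gene whose promoter drives the Cre in the knockout oocytes. It lies at chr5:135980105-135988624 on the plus strand. Its level was 3801, 3488 and 3447 CPM in knockout replicates 1 to 3, beside 4047, 3288 and 3374 CPM in the wildtype. The highest and the lowest library were both wildtype, so the groups overlapped. The log2 fold change was 0.00 (SE 0.127, 95% interval -0.29 to 0.30, adjusted p = 0.989, edgeR) and 0.10 without wildtype replicate 1, and its sign differed between scalings (-0.01 with library totals only).

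The stretch before the annotated Zp3 start, from the RefSeq promoter table of GRCm38.p6, is shown because it belongs to the promoter that drives Cre in these knockouts; it runs over chr5:135979855-135980098 on the plus strand. The neighbouring genes Oosp1 and Oosp2 had a Pearson r of 0.980 over the 6 libraries, with wildtype replicate 1 the highest for both. Oosp1 also had a Pearson r of -0.924 with Bmp15, for which that library was the lowest. The departure of wildtype replicate 1 followed exonic length over the 10 genes, as given below. Oosp1 and Oosp2 are short (972 and 678 bases) and Bmp15 is the longest of the 10 (3060 bases). Neither the part of length in these correlations nor shared regulation was tested. For comparison, the stretches before Oosp1 (chr19:11691151-11691301, minus strand) and Oosp2 (chr19:11660560-11660809, minus strand) follow that of Zp3. All are written 5′ to 3′ on the gene's strand and stop short of any annotated transcript, and capitals mark E-boxes (CANNTG), the letters that basic helix-loop-helix factors such as FIGLA can bind.
Zp3: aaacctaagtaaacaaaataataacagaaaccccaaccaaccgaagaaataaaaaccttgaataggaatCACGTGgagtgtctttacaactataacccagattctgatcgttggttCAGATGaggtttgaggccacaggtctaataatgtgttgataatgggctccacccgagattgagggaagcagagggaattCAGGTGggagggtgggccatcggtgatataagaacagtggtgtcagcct
Oosp1: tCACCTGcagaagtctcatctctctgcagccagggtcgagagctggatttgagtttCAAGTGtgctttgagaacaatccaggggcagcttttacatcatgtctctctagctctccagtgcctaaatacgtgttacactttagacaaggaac
Oosp2: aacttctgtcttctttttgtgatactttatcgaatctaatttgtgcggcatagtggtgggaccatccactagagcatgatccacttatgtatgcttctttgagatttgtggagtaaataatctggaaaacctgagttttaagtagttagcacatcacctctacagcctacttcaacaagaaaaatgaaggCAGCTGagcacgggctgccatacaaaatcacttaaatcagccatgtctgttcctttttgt
Within the 250 bases before the start there were 3 E-boxes for Zp3, of which the first, 181 bases upstream, had the form CACGTG, 5 for Oosp1 and 1 for Oosp2. The stretch printed for Oosp1 ends 100 bases before the start and holds 2 of its 5 E-boxes; the others lie 93, 59 and 48 bases upstream. Over the 32851 promoters of the table and both strands, 66.2% held at least 1 E-box in that window, 12.2% held 3 or more and 6.02% held CACGTG, which is 1 of the forms of CANNTG. Bmp15 had 1 E-box, 1 TAATTA, letters that the homeodomain factor NOBOX can bind (4.84% of promoters), and 1 TATAAA (12.4%). The 2 annotated starts of Astl had 0 and 3 E-boxes. TAATTG (7.17% of promoters) was in none of these windows, and AGGTCA (14.0%) was in that of Oosp1, where it lies 52 bases upstream, outside the printed stretch, and overlaps E-box letters. The table matched 5 of the 10 genes, and Zp1, Zp2, Gdf9, Fgf8 and Oosp3 were not among them.

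Astl, whose product ovastacin cleaves ZP2, lies at chr2:127338639-127357655 on the plus strand. It had 958, 887 and 820.2 CPM in the knockout and 660.1, 942 and 1006 CPM in the wildtype libraries. The knockout libraries lay between the extremes of the wildtype, of which replicate 1 was the lowest of all 6. For Astl the log2 fold change was 0.03 (95% interval -0.37 to 0.43, adjusted p = 0.922, edgeR), but -0.13 without wildtype replicate 1 (95% interval -0.28 to 0.01, adjusted p = 0.143, edgeR), so the direction depended on that library.

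Gdf9, the growth factor with the highest level of the 10 genes, lies at chr11:53430774-53437904 on the plus strand. Its level was 7097, 7239 and 7108 CPM in the knockout and 5759.7, 7183 and 7392 CPM in the wildtype libraries. The knockout libraries were close to each other (7148 ± 79.1 CPM, SD, n = 3), and the wildtype libraries (6778 ± 888 CPM, SD, n = 3) lay on both sides of them. Gdf9 had a log2 fold change of 0.08 (95% interval -0.22 to 0.38, adjusted p = 0.725, edgeR) and -0.03 without wildtype replicate 1 (95% interval -0.13 to 0.07). Gdf9 shares its locus with Uqcrq, a subunit gene of respiratory complex III whose span overlaps it in the annotation. For Uqcrq the log2 fold change was -0.64 (adjusted p = 0.238, edgeR), and -0.10 without wildtype replicate 1. Of the 40-base words of the longest coding Gdf9 transcript, 0% were found in other genes' transcripts. The strand setting of the counting is not given in the sources used here, so any reads in the overlap cannot be assigned further.

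Bmp15, which pairs with GDF9 in signalling to granulosa cells, lies at chrX:6314054-6320724 on the minus strand. It stood at 5175, 4821 and 4722 CPM in knockout replicates 1 to 3 and at 2106, 5606 and 5370.0 CPM in the wildtype. The knockout libraries were tight, with a coefficient of variation of 4.86%, while that of the wildtype was 44.9%, since replicates 2 and 3 averaged 2.61-fold more than replicate 1. With all 6 libraries the log2 fold change was 0.17 (95% interval -0.58 to 0.92, adjusted p = 0.759, edgeR). Without wildtype replicate 1 it turned to -0.16 (SE 0.0522, 95% interval -0.28 to -0.05, adjusted p = 0.0318, edgeR), or 1.12-fold lower, with the knockout libraries all below both remaining wildtype libraries. That pattern was found in 30.5% of genes and in 5 of the 10 described here.

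Fgf8, the fibroblast growth factor that oocytes send to cumulus cells, lies at chr19:45736491-45742941 on the minus strand. It was counted at 99.7, 129 and 116 CPM in the knockout libraries (3383, 4845 and 4374 counts). The wildtype libraries had 221, 172 and 186 CPM (9211, 4478 and 4064 counts). The groups did not overlap, and the highest knockout library, replicate 2, lay below the lowest wildtype library, also a replicate 2. The mean was 115 ± 14.9 CPM in the knockout and 193 ± 25.2 CPM in the wildtype (SD, n = 3 each), and the change was -0.75 on the log2 scale (SE 0.149, 95% interval -1.09 to -0.40, adjusted p = 0.0209, edgeR), or 1.68-fold lower. In pooled oocytes a lower level cannot be told apart between fewer oocytes that express a gene and less RNA in each.

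Without wildtype replicate 1, in which Fgf8 was 1.23-fold above the other wildtype libraries, the log2 fold change was -0.64 (SE 0.0931, 95% interval -0.84 to -0.44, adjusted p = 0.000401, edgeR), or 1.56-fold lower. Fgf8 was lower in the knockout under each of 14 alternatives to the processing, with log2 fold changes from -0.87 to -0.64, and it was called in 9 of them (adjusted p from 0.000401 to 0.104). The call was lost without knockout replicate 1, 2 or 3 (adjusted p = 0.104, 0.0715 and 0.0979, edgeR), without wildtype replicate 3 (adjusted p = 0.0513, edgeR) and with the replicate number as a block (adjusted p = 0.0836, edgeR). The 3 named genes with at least 10 CPM whose levels followed those of Fgf8 most closely over the 6 libraries, out of 8322 compared, were 9430021M05Rik (Pearson r 0.998), the carbonic anhydrase gene Car9 (0.997) and Coa7, a cytochrome oxidase assembly factor (0.996). Car9 had 84.7, 99.4 and 95.99 CPM in knockout replicates 1 to 3 and 155, 127 and 138 CPM in wildtype replicates 1 to 3. The log2 fold changes were -0.49 for 9430021M05Rik, -0.59 for Car9 and -0.39 for Coa7 (-0.43, -0.51 and -0.32 without wildtype replicate 1). Genes picked for following Fgf8 over these libraries share its difference between the groups by that choice. These values are therefore a description and no test.

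Oosp1, Oosp2 and Oosp3 lie within 64.6 kb of each other on chromosome 19, between 11647284 and 11711858. Each was lower in every knockout library than in every wildtype library, but none was called with all 6 libraries. Their wildtype spread came from replicate 1, which had 1.93-fold, 1.65-fold and 1.66-fold the level of the other wildtype libraries for Oosp1, Oosp2 and Oosp3.

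Oosp1, at chr19:11667460-11691051 on the minus strand, had 912, 1129.95 and 1117 CPM in the knockout and 2293, 1201 and 1179 CPM in the wildtype libraries. Knockout replicates 2 and 3 came close to wildtype replicates 2 and 3, and wildtype replicate 1 lay far above both. With all 6 libraries the log2 fold change was -0.57 (95% interval -1.17 to 0.04, adjusted p = 0.201, edgeR). Without wildtype replicate 1 it was -0.18 (95% interval -0.36 to 0.00, adjusted p = 0.114, edgeR), or 1.13-fold lower, and it was called under none of the 14 alternatives.

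Oosp2, at chr19:11647284-11660559 on the minus strand, had 381, 416 and 452 CPM in the knockout and 831, 507 and 503 CPM in the wildtype libraries. The wildtype libraries other than replicate 1 were close to each other and lay above the highest knockout library, replicate 3. The log2 fold change was -0.56 (SE 0.209, 95% interval -1.04 to -0.08, adjusted p = 0.125, edgeR). Without wildtype replicate 1 it shrank to -0.28 (95% interval -0.43 to -0.13), or 1.21-fold lower, and passed the test (adjusted p = 0.00891, edgeR).

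Oosp3, at chr19:11697055-11711858 on the plus strand, had 622, 763 and 802 CPM in the knockout and 1679, 1023 and 1003 CPM in the wildtype libraries. Wildtype replicate 1 was again the highest and knockout replicate 1 the lowest, and there was a gap between the groups. The mean was 729 ± 95.2 CPM in the knockout and 1235 ± 385 CPM in the wildtype (SD, n = 3 each), and the change was -0.76 on the log2 scale (SE 0.221, 95% interval -1.27 to -0.25, adjusted p = 0.0654, edgeR), or 1.69-fold lower. Without wildtype replicate 1 it was -0.47 (95% interval -0.67 to -0.28, adjusted p = 0.00186, edgeR), or 1.39-fold lower. Oosp3 lies antisense to part of the locus Gm19224, with which 2.86% of its 40-base words were shared, while 0% of those of the other 9 genes were found in other genes' transcripts. The longest run shared by any pair of the 10 was 14 bases.

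Ratios of counts within a library do not depend on how libraries are scaled, and set Fgf8 and the Oosp genes against Gdf9. These genes and the reference genes were chosen with earlier results of these data known. The ratios and their p-values are therefore a description and no independent test. The share of all genes whose ratio to Gdf9 separates the groups was not computed. For every 100 Gdf9 counts there were 1.40, 1.79 and 1.63 Fgf8 counts in the knockout and 3.84, 2.40 and 2.51 in the wildtype libraries. For Oosp3 the numbers per 100 Gdf9 counts were 8.76, 10.5 and 11.3 in the knockout and 29.2, 14.2 and 13.6 in the wildtype. Both ratios were lower in every knockout library than in any wildtype library. The difference in mean log2 ratio, knockout minus wildtype, was -0.83 for Fgf8, -0.58 for Oosp1, -0.61 for Oosp2 and -0.81 for Oosp3 (exact two-sided permutation p = 0.1 for each, which is the smallest p that 3 against 3 allows). Against wildtype replicates 2 and 3 alone the differences were -0.62, -0.16, -0.25 and -0.45, so that of Fgf8 shrank least and that of Oosp1 most.

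The coat and Astl ratios to Gdf9 overlapped between groups, with differences of 0.06 for Zp1, 0.02 for Zp2, -0.08 for Zp3 and -0.03 for Astl (exact two-sided permutation p = 0.5, 0.9, 1.0 and 0.8), and so did that of Bmp15 (0.21, exact permutation p = 0.9, or -0.13 against wildtype replicates 2 and 3). Zp3 and Fgf8 have nearly the same exonic length, 1323 and 1350 bases, and their ratio was steady in the wildtype: 5.47, 5.25 and 5.51 Fgf8 counts per 100 Zp3 counts. In the knockout libraries it was 2.62, 3.71 and 3.36, so every knockout library was below every wildtype library, and wildtype replicate 1 did not stand apart. The difference in this log2 ratio was -0.76 with all libraries and -0.75 without wildtype replicate 1 (exact two-sided permutation p = 0.1 with all 6 libraries). Per 100 counts of the summed coat genes, Fgf8 had 2.66, 2.06 and 2.21 in wildtype replicates 1 to 3. The knockout libraries had 1.04, 1.54 and 1.39 on that scale. Zp3 and Fgf8 are 1 pair of genes, and the part of exonic length in these ratios was not tested.

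**Figure D3:**
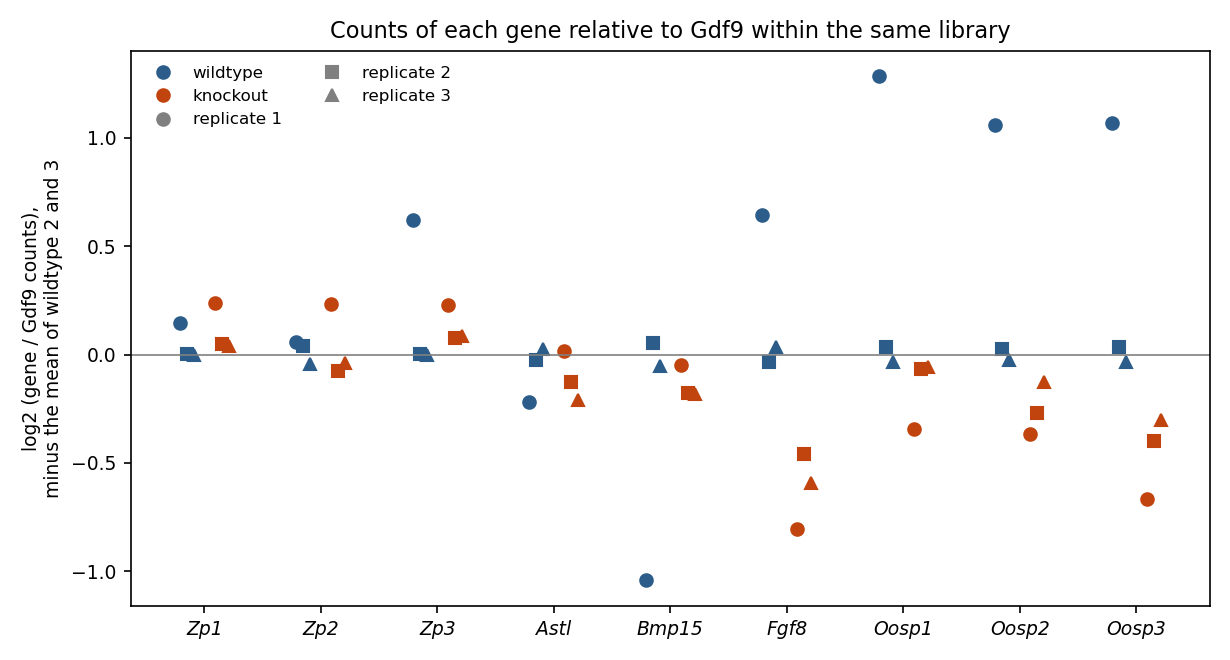
Counts of each gene relative to Gdf9 in the same library, as the log2 ratio minus the mean of wildtype replicates 2 and 3 (0 on the vertical axis), with wildtype in blue, knockout in orange and the replicate number as the symbol. The Oosp and Fgf8 values of wildtype replicate 1 lie above 0 and those of every knockout library below 0, while for Bmp15 wildtype replicate 1 lies about 1 unit below the other libraries.

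How far wildtype replicate 1 departed from wildtype replicates 2 and 3 followed exonic length across the 10 genes. The 5 genes that were higher in it were Oosp1 (log2 0.95), Oosp3 (0.73), Oosp2 (0.72), Fgf8 (0.30) and Zp3 (0.28), which have the 5 shortest exonic lengths, from 678 to 1350 bases. The 5 that were lower were Zp1 (-0.19), Zp2 (-0.28), Gdf9 (-0.34), Astl (-0.56) and Bmp15 (-1.38), with 1981 to 3060 bases, and Bmp15 is the longest. Spearman's rho between length and departure was -0.90 over the 10 genes and -0.20 over 9344 genes with at least 5 CPM, a description across genes that share the same 3 libraries. Over all those genes the median departure was 0.69 for the 175 genes of up to 1000 bases, 0.30 for the 963 of 1000 to 2000 bases, -0.05 for the 1345 of 2000 to 3000 bases and -0.22 for the 3579 of 3000 to 6000 bases, and it was no lower, at -0.22, for the 3282 longer than 6000 bases.

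**Figure D4:**
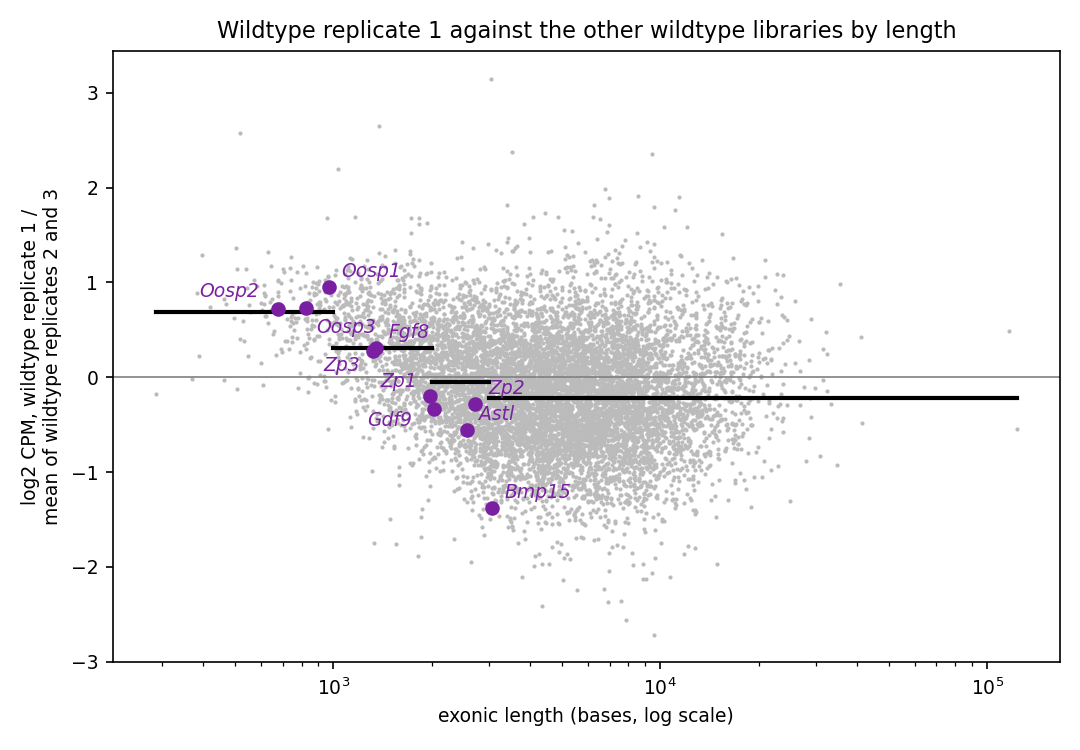
Log2 ratio of CPM in wildtype replicate 1 to the mean of wildtype replicates 2 and 3 against exonic length on a log axis, for genes with at least 5 CPM (grey), the 10 described genes (purple, named) and the median within length classes (black lines). The short Oosp genes lie near 0.7 to 0.95 and Bmp15 at -1.38, and the class medians fall from 0.69 to -0.22, with no further fall above 6000 bases.

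An edgeR fit in which each library's trend with exonic length was taken out, chosen after seeing the data, called 2 of the 10 lower, Fgf8 (log2 fold change -0.72, adjusted p = 0.00958, edgeR) and Oosp3 (-0.59, adjusted p = 0.0165, edgeR), against 14.0% of 13820 genes called in either direction, 6.22% higher and 7.74% lower. Oosp2 (-0.35, adjusted p = 0.0591, edgeR) and Oosp1 (-0.41, adjusted p = 0.1002, edgeR) did not pass in it. The coat genes, Astl and Gdf9 lay between -0.07 and 0.08 on the log2 scale in that fit (SE from 0.120 to 0.176), and Bmp15 at 0.07 (SE 0.316). With all 6 libraries and no offset the SE of Bmp15 was 0.326, so its change stayed poorly determined in both fits.

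Other genes of the same pathways were taken from lists drawn up with the 10 genes. Their counts with all 6 libraries are read against 5.87% of all genes called higher and 5.34% lower. Counts without wildtype replicate 1 are read against 16.7% of all genes called higher and 17.7% lower. On the receiving side of FGF signalling, 13 of 18 listed receptors and pathway genes could be tested. Of these 3 rose, 0 fell and 10 were not called (median log2 fold change 0.14 over the 13). The 3 were Kl, a co-receptor for endocrine FGFs (9.50 ± 0.764 CPM in the knockout and 2.41 ± 0.583 CPM in the wildtype, n = 3 each), Etv5, an ETS transcription factor (10.8 ± 1.27 and 3.59 ± 0.372 CPM, n = 3 each) and Dusp6, a phosphatase of ERK (3.70 ± 0.651 and 1.11 ± 0.536 CPM, n = 3 each). Their log2 fold changes were 1.99, 1.59 and 1.77, and in each the groups did not overlap. Leaving out any knockout library, or wildtype replicate 3, left 2 of the 13 higher, and without wildtype replicate 1 there were 3 higher and 2 lower. Of 21 other FGF ligands 6 could be tested (median -0.27), and Fgf10 fell, from 16.9 ± 1.32 to 10.4 ± 0.0746 CPM (n = 3 each, log2 fold change -0.71, adjusted p = 0.0160, edgeR), a call lost without any 1 of the knockout libraries or wildtype replicate 2, while Fgf7, at 20.7 CPM in the knockout and 14.8 CPM in the wildtype, did not pass (adjusted p = 0.0531, edgeR). In the fit without wildtype replicate 1, Fgf10 was lower (-0.75) and Fgf7 was called higher (log2 fold change 0.42, adjusted p = 0.00853, edgeR).

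Of 29 other TGF-beta family ligands 13 could be tested and 0 were called with all 6 libraries (median 0.07), while without wildtype replicate 1 0 were higher and 2 lower. Of 24 receptors, antagonists and SMADs of that family 18 could be tested (median -0.06), and the type I receptor gene Acvr1 fell, from 8.15 ± 1.36 to 4.69 ± 0.556 CPM (n = 3 each, log2 fold change -0.80, adjusted p = 0.0335, edgeR). It was called in no fit that left out a knockout library or wildtype replicate 2 or 3, in which 0 of the 18 were called, and without wildtype replicate 1 there were 1 higher and 4 lower. Among 14 convertases and secretory processing genes, 10 of which could be tested (median 0.18), Pcsk6 fell from 16.3 ± 0.941 to 7.57 ± 1.06 CPM (n = 3 each, log2 fold change -1.11, adjusted p = 0.00579, edgeR). PCSK6 is a protease that cuts TGF-beta family precursors. The list had 1 lower in every fit that left out a library other than wildtype replicate 1, and 2 without that library.

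Of the coat's partners on the oocyte surface, 12 of 12 could be tested (median 0.06), and Mfge8 was called higher at a level near 1 CPM (1.39 and 0.575 CPM), a call lost without any 1 of the knockout libraries or wildtype replicate 2, while without wildtype replicate 1 there were 1 higher and 2 lower. Izumo1r, which encodes the sperm receptor JUNO, had 209 ± 10.3 CPM in the knockout and 311 ± 111 CPM in the wildtype (n = 3 each, log2 fold change -0.57, adjusted p = 0.149, edgeR) and -0.24 without wildtype replicate 1 (adjusted p = 0.0136, edgeR). Of 20 genes of cortical granule transport and exocytosis 18 could be tested (median 0.05), and Vamp1 and Cplx1 were called lower at 0.971 against 1.95 CPM and 2.74 against 4.78 CPM. Both calls were lost without any 1 of the knockout libraries or wildtype replicate 2, 1 was lost without wildtype replicate 3, and without wildtype replicate 1 there were 1 higher and 3 lower. Of 10 ZP-domain and OOSP relatives 7 could be tested (median 0.41), of which 0 were called with all 6 libraries and 3 were higher without wildtype replicate 1.

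Of 10 genes of the contact between oocyte and granulosa cells, 10 could be tested (median 0.11), 1 rose and 1 fell. Gja4, the connexin of that contact, fell from 1028 ± 135 to 718 ± 52.7 CPM (n = 3 each, log2 fold change -0.52, adjusted p = 0.0476, edgeR), a call lost without any 1 library other than wildtype replicate 1, and Fscn1, an actin-bundling protein, rose from 2.65 ± 0.379 to 7.95 ± 0.419 CPM (n = 3 each, log2 fold change 1.58, adjusted p = 0.00271, edgeR). Of the 10 contact genes 3 were higher and 2 lower without wildtype replicate 1. Of 14 transcription factors linked to coat and growth factor genes 13 could be tested (median 0.12), and Tcf4 fell from 3.37 to 1.30 CPM, a call lost without any 1 of the knockout libraries, while without wildtype replicate 1 there were 1 higher and 3 lower. Figla, the basic helix-loop-helix factor of the coat genes, averaged 41.6 ± 0.613 CPM in the knockout and 41.1 ± 0.822 CPM in the wildtype (n = 3 each, log2 fold change 0.02, adjusted p = 0.939, edgeR, and 0.0099 without wildtype replicate 1). Of 8 genes that oocyte factors induce in cumulus cells, 2 could be tested, and Ptgs2 was called higher (2.86 and 1.07 CPM), a call lost without any 1 of the knockout libraries or wildtype replicate 2 or 3, and 2 of 2 were higher without wildtype replicate 1.

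The annotation places 53 other genes within 100 kb of the 10, of which 41 could be tested, 3 were called higher and 1 lower, or 9.76% beside 11.2% of all genes tested. Leaving out wildtype replicate 1 gave 8 higher and 6 lower of 43, where 34.4% of all genes were called. Tmem159, 5775 bases from Zp2, rose from 13.2 ± 1.83 to 33.6 ± 1.45 CPM (n = 3 each, log2 fold change 1.35, adjusted p = 0.00232, edgeR). The others were Hspb1 (2.08) and Rasa4 (-0.54) near Zp3 and Slc15a3 (2.98, at under 1 CPM) near Zp1. Within 50 kb, 1 of 23 tested was called, Tmem159, and 5 of 23 without wildtype replicate 1. Around the Oosp genes, 0 of 6 tested neighbours were called with all 6 libraries, with log2 fold changes from -0.52 to 0.23, and 0 of 6 without wildtype replicate 1.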

How the data were processed

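Messenger RNA was measured in 3 knockout and 3 wildtype pools of about 10 oocytes. Per the labels' protocols, RNA came from the PicoPure kit, cDNA from the SMARTer Ultra Low Input kit and single-end libraries from NexteraXT. The submitters' processing notes name STAR 2.7.11a, featureCounts 2.0.3 and GRCm38.p6 (mm10). Not given in the sources used here are the annotation, the strand setting and how multi-mapping reads were handled. The authors deposited raw counts of reads per Entrez gene, 1 table per library. Symbols and coordinates (1-based) came from a RefSeq table of the same assembly, which named 25275 of 27179 identifiers; 18 more were named from GENCODE and 1886 stayed unnamed. Exonic length, the union of a gene's GENCODE exons, was known for 21573.

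Genes were filtered with edgeR's filterByExpr (minimum count 10), scaled with TMM (trimmed mean of M values) and tested with edgeR 4.0.16's quasi-likelihood test in R 4.3.3, with Benjamini-Hochberg adjustment over all genes tested and a call at an adjusted p under 0.05. The standard error is the absolute log2 fold change over the square root of F. CPM values were computed here from the deposited counts with TMM scaling and are given as mean ± SD. Ratios to Gdf9 were compared with exact two-sided permutation tests. The fit was tested on simulated counts.

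The 10 genes and all lists were chosen with earlier results of these data known. Named were the 10 genes, up to 4 genes per list (called genes with the largest change first, then the smallest p), the 3 genes most like Fgf8 and called or overlapping neighbours within 100 kb; Figla was named after its values were seen, and 1 listed gene is not reported here. Alternatives were DESeq2 size factors, library totals, no filter, limma-voom (limma 3.58.1), the Wald test of DESeq2 1.42.0, a stricter filter (5 CPM in 3 libraries), the replicate number as a block, each library left out in turn, other reference genes for the ratios and 50 kb for the neighbours. After seeing the data, a length offset (loess, span 0.3, for the 92.4% of tested genes with a length) and another length rule were added. No library pair was as close as sampling noise (mean chi-square per gene 4.60 to 171).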

Additional observations from a re-analysis of the deposited data

How the results depend on the processing

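The count of genes called was 1676 and became 1038 with the filter of 5 CPM in 3 libraries, 2671 with DESeq2's Wald test, and 357 to 5199 when 1 library was left out (5199 without wildtype replicate 1). Of the 10 genes, 2 were called with the length offset and 2 with DESeq2, and 0 to 4 with 1 library left out. Same-numbered knockout and wildtype libraries did not deviate together (correlations -0.0855, -0.00519 and -0.107). With 3 libraries per group this cannot exclude that same-numbered pools were handled together, which the sample titles do not say. With the replicate block 537 genes and 0 of the 10 were called. In that fit Fgf8 kept a log2 fold change of -0.75 with adjusted p = 0.0836 (edgeR). Log2 fold changes with 1 library left out ranged from 0.08 to 0.19 for Zp1, 0.01 to 0.16 for Zp2, -0.0595 to 0.10 for Zp3, -0.13 to 0.15 for Astl, -0.0289 to 0.15 for Gdf9, -0.16 to 0.39 for Bmp15, -0.87 to -0.64 for Fgf8, -0.73 to -0.18 for Oosp1, -0.69 to -0.28 for Oosp2 and -0.89 to -0.47 for Oosp3. Zp3 turned to -0.0066 with DESeq2 size factors, -0.0093 with library totals, -0.0218 with the stricter filter and -0.0067 with DESeq2's test. The length offset turned Zp2 to -0.0025, Astl to -0.0732 and Gdf9 to -0.00025 and took Oosp3 to -0.59 with a call, as DESeq2 did at -0.77. The cause was not tested.

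Of the list counts, the stricter filter gave 0 for surface partners, convertases and cumulus genes higher and for cortical granule, contact and transcription factor genes lower, and 1 for other FGF ligands higher. The block gave 0 for surface partners higher and for cortical granule, TGF-beta receptor, other FGF ligand, contact and transcription factor genes lower. Library totals and no filter gave 0 contact genes lower. The length offset and DESeq2 gave 1 other TGF-beta ligand lower, and DESeq2 1 other FGF ligand higher. With 1 library left out, the counts higher and lower ranged over 0 to 3 and 0 for ZP relatives, 0 to 1 and 0 to 2 for surface partners, 0 to 1 and 0 to 3 for cortical granules, 0 and 0 to 2 for other TGF-beta ligands, 0 to 1 and 0 to 4 for TGF-beta receptors, 0 to 1 and 0 to 1 for other FGF ligands, 2 to 3 and 0 to 2 for the FGF pathway, 0 to 1 and 1 to 2 for convertases, 1 to 3 and 0 to 2 for contact, 0 to 1 and 0 to 3 for transcription factors, and 0 to 2 and 0 for cumulus genes. Neighbours called went from 4 to 1 at 50 kb. The differences in log2 ratio to Gdf9 stayed below 0 for Fgf8 (-0.96 to -0.62), Oosp1 (-0.82 to -0.16), Oosp2 (-0.80 to -0.25) and Oosp3 (-1.01 to -0.45) with 1 library left out, and with Zp3 or the summed coat genes as the reference. With the longest coding transcript in place of the union of exons, the order of levels per kilobase was the same.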
